A study of Mus musculus with 3 samples.

Results

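The regions described here were the 10 kb regions of 2 windows of the mouse genome, each chosen by its coordinates as a large cluster of olfactory receptor genes. On mm9, the genome build used by the submitters, the windows spanned chr2:85000000-89900000, which held 490 regions, and chr9:37600000-40200000, which held 260 regions. Together they held 750 regions, of which 24 on chromosome 2 and 6 on chromosome 9 received no di-tag end in any library. Over the genome, 242198 regions received at least 1 end in any library. Contacts were measured by Capture Hi-C (CHi-C) in 3 libraries, Samples 3, 4 and 5, which formed 1 group of C57BL/6 mouse embryonic stem cells, pluripotent cells grown in culture, with no treatment or genotype contrast. In each library chromatin was fixed with 2% formaldehyde for 10 min and cut with HindIII, the fragment ends were filled in with biotin and ligated, and chosen fragments were enriched by capture, so that a sequenced di-tag records a pair of ligated fragments. Sample 3 carries conflicting labels, with Foetal liver cells as its source and embryonic stem cells as its cell type. The paper describes Samples 3, 4 and 5 as derived from mouse embryonic stem cells. Because of the conflict, means are also given without Sample 3. Whether the libraries came from separate cultures is not stated, and the baits were not used here.

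Olfactory receptors are the G protein-coupled receptors with which sensory neurons of the nose bind odorants. Their genes form the largest gene family of the mouse and lie in long tandem clusters on many chromosomes. A mature olfactory neuron uses a single allele of a single receptor gene, and in these neurons the silent clusters are known to gather in heterochromatin and to meet across chromosomes.

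The di-tag lists hold positions and no gene names, and no annotation of mm9 was used here, so no gene was placed at a position and the content of the windows was not checked against their label. As background from a later build, the RefSeq gene table of GRCm38.p6 holds an unbroken run of 222 genes with an Olfr symbol on chromosome 2, counting past 3 other genes that lie among them (Fads2b, Pramel7 and Pramel6). That run begins with Olfr987 and ends with Olfr1274, between Lrrc55, which encodes a potassium channel subunit, and Ptprj, a receptor-type tyrosine phosphatase. The run on chromosome 9 holds 95 Olfr genes, from Olfr160 to Olfr986, with Vwa5a, AW551984 and Tmem225 among them. Panx3, a pannexin channel gene, precedes it and Zfp202, a zinc finger gene, follows it.

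As background on where the enzyme cuts, the promoters of these runs were searched for the HindIII site AAGCTT, which reads the same on both strands. A promoter without a site of its own still lies on a HindIII fragment. A promoter was taken as 250 bases before to 50 bases after the gene start in RefSeq's GRCm38.p6 table. The site was present in 12 of 186 promoters of the chromosome 2 run (6.45%) and in 8 of 79 of the chromosome 9 run (10.1%), against 2449 of 32851 promoters of the whole table (7.45%). Their mean GC content was 32.0% and 35.6%, against 53.8% over all promoters. The promoter with a site that comes first in gene order is shown for each run, as an example of a receptor gene promoter that the enzyme itself cuts, with the HindIII site in capitals.
Olfr154: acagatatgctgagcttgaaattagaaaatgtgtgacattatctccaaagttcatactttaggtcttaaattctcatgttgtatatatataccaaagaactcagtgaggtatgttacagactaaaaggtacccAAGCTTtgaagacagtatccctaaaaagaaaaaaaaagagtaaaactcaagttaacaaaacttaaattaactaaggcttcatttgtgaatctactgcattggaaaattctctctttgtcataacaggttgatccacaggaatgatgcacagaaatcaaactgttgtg
Olfr25: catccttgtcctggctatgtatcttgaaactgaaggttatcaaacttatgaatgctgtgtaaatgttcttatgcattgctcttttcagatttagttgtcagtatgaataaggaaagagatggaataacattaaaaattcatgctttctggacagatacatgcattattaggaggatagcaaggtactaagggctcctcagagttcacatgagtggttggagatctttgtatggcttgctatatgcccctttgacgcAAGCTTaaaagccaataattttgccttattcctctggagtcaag
The site begins at base 134 of the promoter of Olfr154 and at base 257 of that of Olfr25.

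With duplicates removed, the libraries held 9376907, 8596799 and 8821161 di-tags, and with duplicates retained 67919330, 49196723 and 45868446. Trans di-tags, which join different chromosomes, made up 52.0% of the list of Sample 3, 67.4% of that of Sample 4 and 71.6% of that of Sample 5. Sample 3 thus stood apart from the other libraries in its share of cis di-tags, and values below are given for each library in the order Samples 3, 4 and 5. Lists with duplicates removed were used unless stated otherwise. Intervals on counts cover counting error only, and di-tags carry no molecular identifier.

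Fewer di-tag ends fell in the chromosome 2 cluster than in its surroundings in every library, whereas the chromosome 9 cluster was close to the genome's mean. Coverage was the number of di-tag ends in a region of 10 kb, given per 1000000 ends of the library (EPM). The genome's mean and median were taken over regions with an end in any library. Those of clusters and flanks also included regions without ends, which lowers their means in comparison. The chromosome 2 cluster received 23026, 27357 and 31584 ends, a mean of 2.51, 3.25 and 3.65 EPM per region, against a genome mean of 4.13. The chromosome 9 cluster received 17362, 18442 and 20653 ends, a mean of 3.56, 4.13 and 4.50 EPM. Relative to the genome, coverage was 0.759 ± 0.141 on chromosome 2 (SD, n = 3 libraries; 0.836 without Sample 3) and 0.984 ± 0.115 on chromosome 9 (1.04 without Sample 3).

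The flanks, taken as 2 Mb on each side, had a higher mean coverage than either cluster. The ratio of cluster to flanks was 0.404, 0.590 and 0.671 on chromosome 2, a mean of 0.555 ± 0.137, and 0.759, 0.836 and 0.918 on chromosome 9, a mean of 0.838 ± 0.0799. Without Sample 3 the means were 0.631 and 0.877. Both ratios were below 1 in 3 of 3 libraries. An exact permutation test that flips the signs of the log2 ratios cannot go below a two-sided p of 0.25 with 3 libraries, which was its value for each cluster. Sample 3 had the lowest ratio of the 3 libraries for both clusters.

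Part of this difference lay in the most covered regions of the genome. The 10% with the highest coverage took in 30 of the 490 regions of the chromosome 2 cluster (6.12%) and 23 of the 260 regions of the chromosome 9 cluster (8.85%). In the flanks the share was 16.5% before and 23.5% after the chromosome 2 cluster, and 15% before and 12.5% after the chromosome 9 cluster. When these regions were left out of clusters, flanks and genome alike, the ratio of cluster to flanks was 1.03 on chromosome 2 and 1.12 on chromosome 9, and the chromosome 2 cluster was at 1.04 times the genome. These are means over libraries, and in Sample 3 the chromosome 2 cluster stayed below both, at 0.878 times the flanks and 0.926 times the genome. The step drops regions by coverage, the measured quantity itself. With all regions kept, the median region of the chromosome 2 cluster held 1.57, 2.38 and 2.61 EPM, below the genome's median of 2.35, 2.73 and 2.83 and below the medians of both flanks in every library. The median region of the chromosome 9 cluster held 2.56, 3.26 and 3.63 EPM, above the genome's median in every library. The medians of its flanks were 2.53, 3.37 and 3.40 before and 3.28, 3.84 and 3.68 after the cluster, so its own lay between them in Samples 3 and 5 and below both in Sample 4. What part capture, mapping and the number of HindIII sites had in coverage was not tested.

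**Figure D1:**
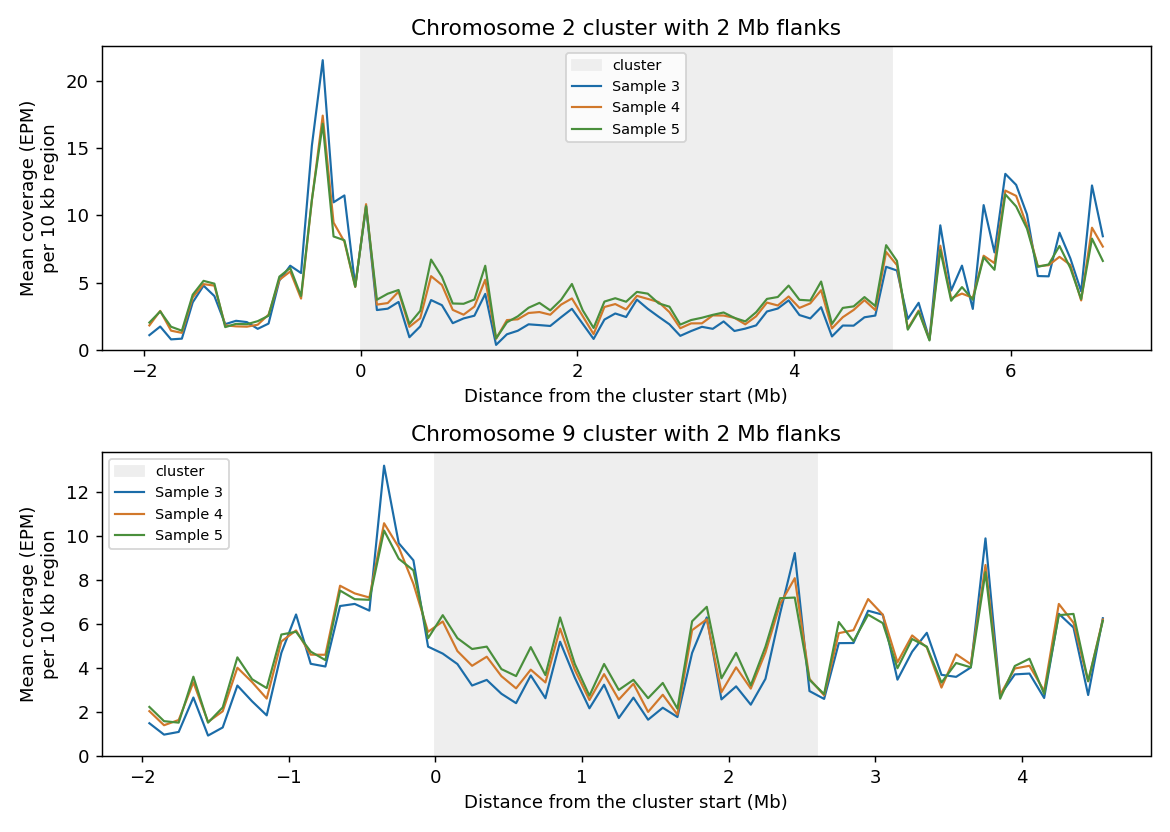
Mean coverage in EPM, di-tag ends per 1000000 ends of a library, per 10 kb region (y axis) in steps of 100 kb along each cluster (grey) and its 2 Mb flanks, against the distance from the cluster start in Mb, with 1 line per library. The 3 lines follow each other, and the highest step of each panel lies in the flank before the cluster, at 0.35 Mb from its first edge.

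Along the clusters, coverage was alike in the 3 libraries. Across the 490 regions of the chromosome 2 cluster, the ends of any 2 libraries had a Pearson r between 0.947 and 0.981, and across the 260 regions of the chromosome 9 cluster between 0.938 and 0.980. These are correlations across regions, which are not independent replicates. Ends were found in all 3 libraries in 458 and 253 regions, and in no library in 24 and 6 regions. The longest run of such empty regions was chr2:89050000-89079999 on chromosome 2 and the single region chr9:38040000-38049999 on chromosome 9.

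In both clusters the 3 regions with the highest coverage lay mostly at the ends of the windows. Region chr2:85030000-85039999 held 986, 795 and 805 ends, more than 99.95% of all regions of the genome. It was followed by chr2:85000000-85009999 with 384, 339 and 363 ends, also at the start of the window, and by chr2:86130000-86139999 with 301, 293 and 328 ends. On chromosome 9 the most covered region was chr9:40070000-40079999, near the end of the window, with 644, 478 and 486 ends. Next came chr9:39990000-39999999 with 505, 353 and 352 ends and chr9:37700000-37709999 with 392, 342 and 353 ends. The tenth of the regions with the most ends held 37.7%, 32.7% and 32.7% of the ends of the chromosome 2 cluster and 36.5%, 31.5% and 30.5% of those of the chromosome 9 cluster. Over the whole genome that share was 43.3%, 37.6% and 36.5%. A lower share than the genome's was not particular to the clusters, since the flank after the chromosome 9 cluster had 33.7%, 32.9% and 32.5%.

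Most ends in the clusters had their partner on another chromosome. On chromosome 2 this share was 56.4%, 71.5% and 74.0%, and on chromosome 9 it was 54.8%, 71.6% and 74.3%. A partner within the same cluster was found for 12.0%, 15.6% and 14.7% of the ends on chromosome 2 and for 12.5%, 16.7% and 15.6% on chromosome 9. The remaining ends, with a partner elsewhere on the same chromosome, made up 31.6%, 12.9% and 11.3% on chromosome 2 and 32.7%, 11.6% and 10.1% on chromosome 9. In Sample 3 this last share was far above that of either other library. Exact (Clopper-Pearson) 95% binomial intervals were at most about a percentage point wide on either side, for example 11.6% to 12.4% around the 12.0% of Sample 3.

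To set these shares against the rest of the genome, every chromosome was tiled with windows of the same length as a cluster. Windows with 0.8 to 1.25 times its coverage, taken as the mean over the 3 libraries, were kept. This left 185 of 526 windows for the chromosome 2 cluster and 328 of 998 for the chromosome 9 cluster. Equal coverage here and below means this match, which need not hold within each library. The chromosome 2 cluster was at 0.607, 0.786 and 0.885 times the genome's mean coverage. The share of ends with a partner in the same window was below the median of these windows for both clusters in every library. On chromosome 2 it was lower than in 160, 168 and 150 of 185 windows, whose median was 15%, 18.6% and 16.5%. On chromosome 9 it was lower than in 300, 314 and 299 of 328 windows, whose median was 16.0%, 21.0% and 18.4%. The trans share of the chromosome 9 cluster was above that of 193, 296 and 275 of 328 windows, whereas that of the chromosome 2 cluster was above 74, 90 and 72 of 185.

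Within both clusters the ratio of observed to expected contacts was highest above 1 Mb in every library. Between different regions of the chromosome 2 cluster there were 1223, 1696 and 1815 di-tags, and in the chromosome 9 cluster 987, 1270 and 1272. Each count was compared with the number expected from the coverage of both regions and the genome's mean contacts at that distance. On chromosome 2, the ratio of observed to expected di-tags at 10 to 50 kb was 1.23, 0.931 and 0.925, from 298, 607 and 710 di-tags. At 50 to 200 kb it was 1.11, 0.868 and 0.911, from 240, 322 and 374 di-tags. At 200 kb to 1 Mb it was 1.14, 1.16 and 1.12, from 348, 483 and 508 di-tags.

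Above 1 Mb the ratio of the chromosome 2 cluster was the highest of the 4 distance classes in each library. It was 1.58 (exact Poisson 95% interval 1.42 to 1.76) in Sample 3, 2.08 (1.85 to 2.34) in Sample 4 and 1.49 (1.30 to 1.69) in Sample 5, from 337, 284 and 223 di-tags. The mean was 1.72 ± 0.321 (SD, n = 3) and 1.78 without Sample 3, above 1 in 3 of 3 libraries (two-sided exact p = 0.25 by the same sign-flip permutation, its smallest value).

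The chromosome 9 cluster had the same order of values. At 10 to 50 kb its ratio was 1.21, 0.964 and 0.925, from 281, 496 and 518 di-tags. At 50 to 200 kb it was 1.03, 0.852 and 0.844, from 258, 287 and 291 di-tags. At 200 kb to 1 Mb it was 1.07, 1.23 and 1.15, from 312, 388 and 378 di-tags. Above 1 Mb it was 1.37 (1.15 to 1.62), 1.69 (1.38 to 2.06) and 1.42 (1.13 to 1.75), from 136, 99 and 85 di-tags, with a mean of 1.49 ± 0.175 (1.55 without Sample 3). In both clusters Samples 4 and 5 had ratios below 1 at distances under 200 kb, in part with intervals that included 1. Sample 3 had ratios above 1 there, with intervals that included 1 at 50 to 200 kb.

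A ratio of 1 was not taken as the mark for the clusters, because windows of equal size and coverage also had medians above 1 at over 1 Mb. In a simulated library with the uneven coverage of Sample 4, this expectation gave too high a ratio for the chromosome 2 cluster. No other window was simulated. The clusters were therefore ranked among the windows of equal size and coverage. At over 1 Mb the median of those windows was 1.17, 1.39 and 1.28 for chromosome 2, and the cluster exceeded 177, 182 and 136 of 185 windows. For chromosome 9 the median was 1.09, 1.14 and 1.12, and the cluster exceeded 275, 280 and 249 of 328 windows. The chromosome 9 ratios all lay below the 95% point of the windows, at 1.56, 2.08 and 1.92. So did that of chromosome 2 in Sample 5, at 1.49 against 1.74. The chromosome 2 ratios of Samples 3 and 4 lay above theirs, at 1.53 and 1.89. At 10 to 50 kb the chromosome 2 cluster was below 129, 173 and 176 of 185 windows and the chromosome 9 cluster below 188, 310 and 314 of 328. At 200 kb to 1 Mb the clusters were above 112, 54 and 52 of 185 windows and above 153, 182 and 163 of 328. Windows along a chromosome are not replicates, so these ranks are a description.

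An expectation with balanced weights, which give each region its own number of cis ends, was chosen after seeing the data. It recovered the simulated ratios, but those were drawn from the same form of model. The simulation therefore could not show whether the weights hold for capture data. With it, the ratio of the chromosome 2 cluster at over 1 Mb was 1.5, 2.03 and 1.54, above 185, 185 and 171 of 185 windows. That of the chromosome 9 cluster was 1.47, 1.77 and 1.53, above 327, 309 and 294 of 328 windows. At 200 kb to 1 Mb the balanced weights also placed the clusters higher, above 175, 130 and 153 of 185 windows and above 316, 319 and 306 of 328, so their rank at that distance depended on the expectation. In Samples 4 and 5 the ratio at 10 to 50 kb stayed below 1, at 0.877 and 0.910 on chromosome 2 and at 0.930 and 0.906 on chromosome 9. In Sample 3 it was 1.16 and 1.21, above 163 of 185 and 311 of 328 windows, so at short distances the place of the clusters among the windows differed between libraries.

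An expectation without coverage, from contacts per region pair at each distance, gave lower mean ratios. On chromosome 2 the mean ratio at over 1 Mb was then 0.933, and at 200 kb to 1 Mb it was 0.546 on chromosome 2 and 0.843 on chromosome 9. Without the 10% most covered regions, the ratio at over 1 Mb was 1.23 on chromosome 2 and 1.22 on chromosome 9, and at 200 kb to 1 Mb it was 0.822 and 0.856. This step lowered the mean ratio of every distance class in both clusters, and windows of equal coverage were not ranked again under it. The mean of 0.933 without coverage on chromosome 2 came from 0.521 in Sample 3, 1.18 in Sample 4 and 1.09 in Sample 5.

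**Figure D2:**
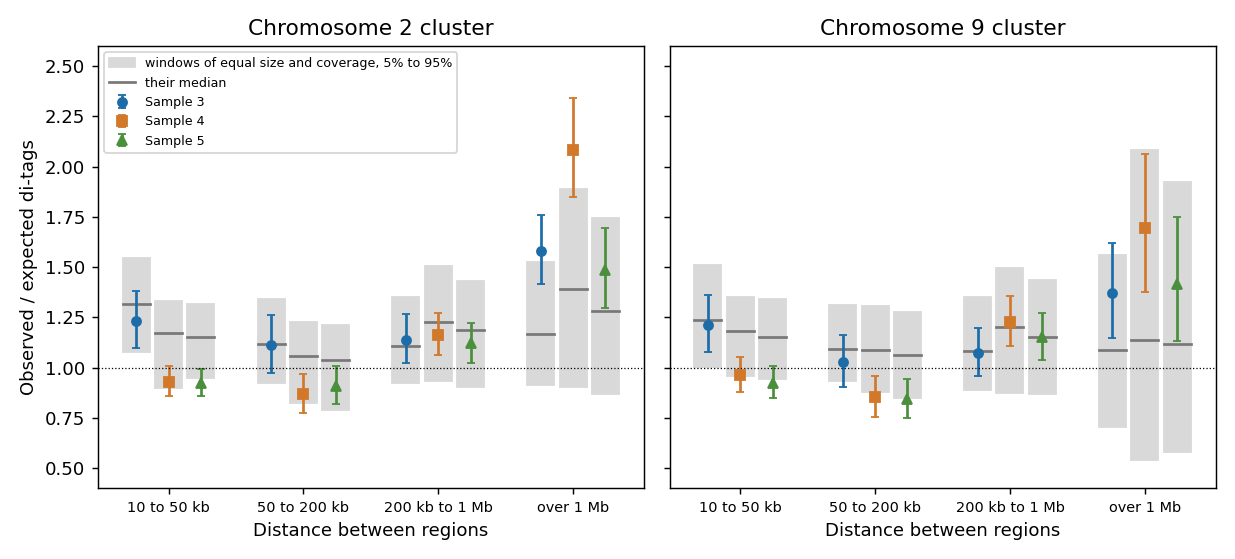
Ratio of observed to expected di-tags (y axis) by the distance between regions (x axis) in both clusters, by library, with exact Poisson 95% intervals that cover counting error only. Grey boxes span the 5% to 95% range of windows of equal size and coverage, with their median as a line. In both clusters every library lies above that median at over 1 Mb and below it at 10 to 50 kb, where Sample 3 is the closest to it.

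Split into 7 blocks of 700 kb, the chromosome 2 cluster had pooled ratios above 1 in every block pair with at least 1 block between them. Here too 1 was not the mark, since windows of equal size and coverage had a pooled median of 1.26 at over 1 Mb. Some of these block pairs were below 1 in Sample 5, down to 0.738 between chr2:87100000-87799999 and chr2:88500000-89199999, from 11 di-tags. Among the pairs with at least 1 block between them, the pooled ratio was highest between chr2:87800000-88499999 and chr2:89200000-89899999, with 20, 36 and 23 di-tags and ratios of 1.59, 3.21 and 1.94. It was 2.10 between chr2:85000000-85699999 and chr2:87800000-88499999, from 19, 12 and 13 di-tags. Within single blocks the pooled ratio lay between 0.913 and 1.21. In the chromosome 9 cluster, split into 4 blocks of 650 kb, the pooled ratio was highest between chr9:37600000-38249999 and chr9:38900000-39549999, at 1.84 from 44, 39 and 44 di-tags. These pairs were picked for their values, and no test was made of them.

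**Figure D3:**
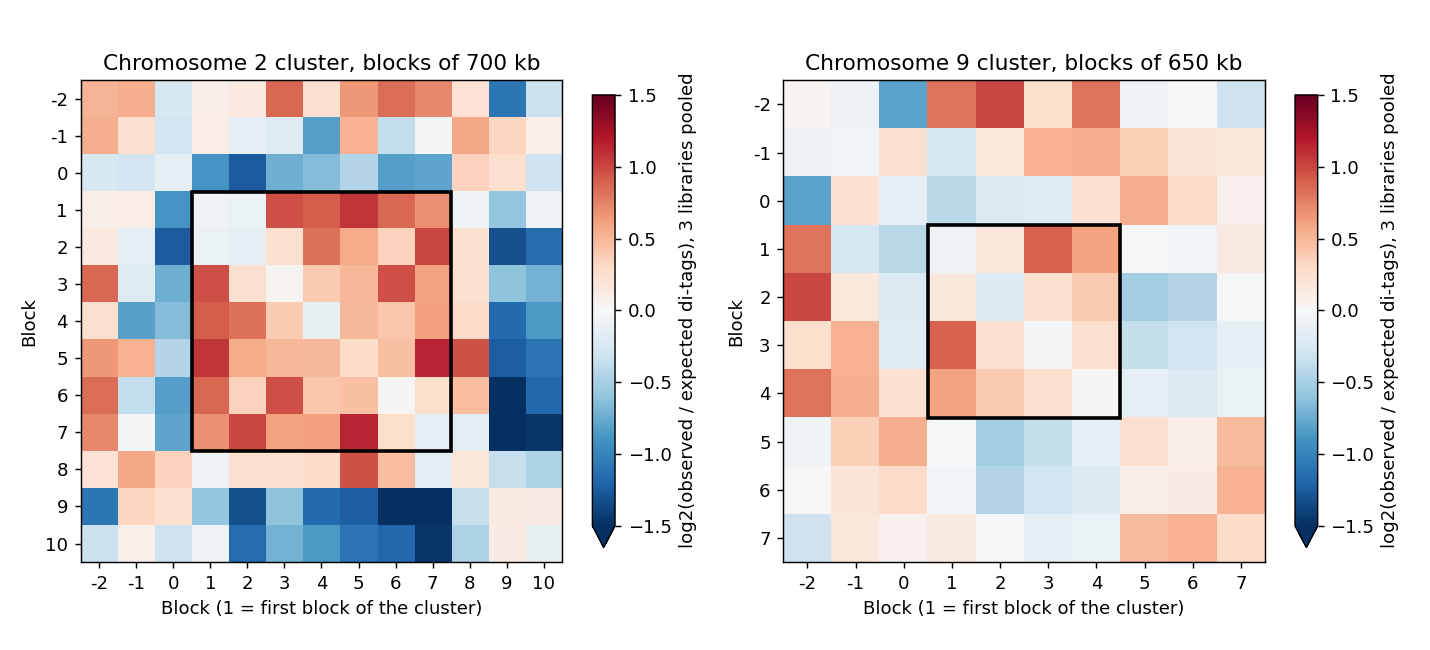
log2 ratio of observed to expected di-tags, 3 libraries pooled, between blocks of 700 kb (chromosome 2) or 650 kb (chromosome 9), numbered from the first block of the cluster on both axes. The black square encloses the cluster, and the colour scale ends at -1.5, with 2 block pairs of chromosome 2 below it. Blocks of the chromosome 2 cluster far apart from each other are red, as are some flank block pairs such as block 8 with block 5 (1.93) and block -2 with block 3 (1.81). The former pools 18, 22 and 15 di-tags, and the latter only 13, 0 and 10. The blocks of the cluster with block 0 just before it, and with blocks 9 and 10 after it, are mostly blue.

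Contacts between a cluster and its flanks were counted at 50 kb to 1 Mb, to see whether they stayed on either side of the window edges. The ratio of observed to expected di-tags was lowest at the first edge of the chromosome 2 cluster. There, 154, 154 and 105 di-tags were seen against 342, 245 and 215 expected, ratios of 0.451 (0.382 to 0.528), 0.630 (0.534 to 0.737) and 0.489 (0.40 to 0.592). The mean was 0.523 ± 0.0943 (SD, n = 3) and 0.559 without Sample 3. At the same distances the ratio within the cluster was 1.13, 1.02 and 1.02, and within the flank before it 1.17, 0.823 and 0.770. Balanced weights gave 0.496, 0.719 and 0.558 across this edge.

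The other edges showed less. Across the first edge of the chromosome 9 cluster the ratio was 0.738, 0.804 and 0.729, from 150, 153 and 129 di-tags, and each Poisson interval ended below 1. Across its last edge the ratio was 0.799, 1.02 and 0.963, and across the last edge of the chromosome 2 cluster 0.715, 1.04 and 0.895, where the intervals of Samples 4 and 5 included 1. With balanced weights the first edge of the chromosome 9 cluster was at 0.840, 0.918 and 0.849 and its last edge at 0.756, 0.882 and 0.877, so the order of these edges depended on the expectation.

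Each edge was ranked among 2354 positions set at steps of 1 Mb along the genome, using the ratio across a position divided by the geometric mean of the ratios on either side of it, within 2 Mb. For the first edge of the chromosome 2 cluster this value was 0.408, 0.713 and 0.564. It was lower at 6, 310 and 95 positions, and at 12 positions (0.510%) with the libraries pooled. In Sample 4, therefore, 13.2% of the positions were lower still. With libraries pooled, the share of lower positions was 13.5% for the last edge of the chromosome 2 cluster, 9.81% for the first edge of the chromosome 9 cluster and 15.8% for its last edge. The low value at the first edge of the chromosome 2 cluster adjoined the flank's most covered stretch, the block chr2:84300000-84999999 with 10.9, 8.63 and 8.49 EPM, and the part of coverage in it was not tested.

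**Figure D4:**
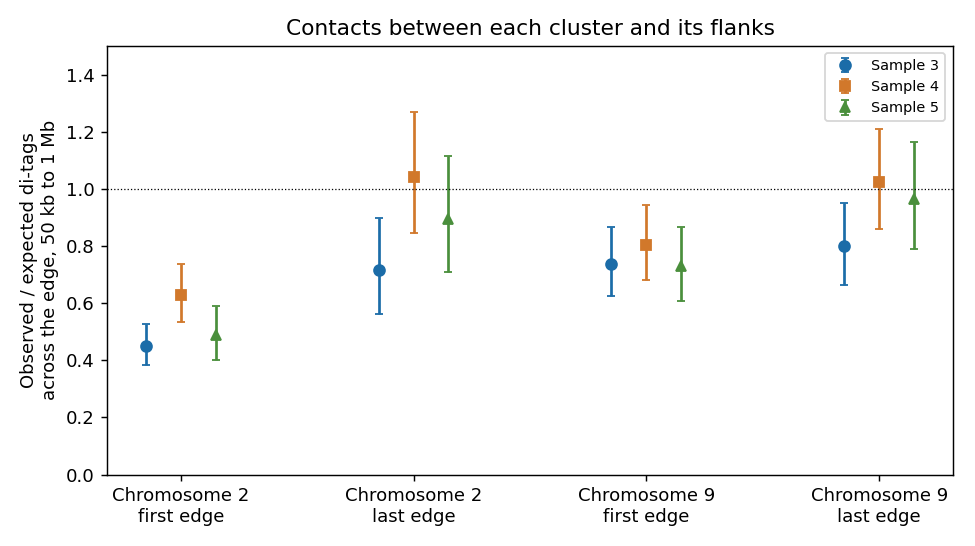
Ratio of observed to expected di-tags between each cluster and the 2 Mb flank beyond its first or last edge, at 50 kb to 1 Mb, by library, with exact Poisson 95% intervals that cover counting error only. All 3 libraries lie lowest at the first edge of the chromosome 2 cluster, between 0.451 and 0.630.

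Counted over whole blocks of 700 kb and all distances between different regions, contacts of the chromosome 2 cluster did not drop at its last edge in Samples 4 and 5. The block that follows the window, chr2:89900000-90599999, had a ratio with the cluster of 0.779, 1.38 and 1.25, from 172, 194 and 169 di-tags. The next block, chr2:90600000-91299999, had 0.346, 0.576 and 0.472, from 93, 61 and 47 di-tags. The last window edge thus did not coincide with the fall in this ratio in those libraries. Coverage also rose between these blocks, from 4.64, 3.91 and 3.92 EPM in the first to 8.86, 8.02 and 7.72 in the next. The part of coverage in the fall was not tested. Before the window, the block chr2:84300000-84999999 had 0.384, 0.720 and 0.656, from 240, 265 and 221 di-tags. Around the chromosome 9 cluster, the adjoining blocks of 650 kb had 0.734, 0.898 and 0.882 before and 0.774, 1.02 and 0.866 after the window. A ratio above 1 at long distance was not limited to pairs within a cluster. The block chr9:35650000-36299999, in the flank before the window and at least 1 Mb away, had 1.73, 1.85 and 1.53 with the chromosome 9 cluster, from 64, 35 and 30 di-tags. The block chr2:82900000-83599999 had 1.59, 1.07 and 1.1 with the chromosome 2 cluster, from 87, 28 and 30 di-tags. Its lower 95% limits were 1.28, 0.714 and 0.741, and those of the chromosome 9 block 1.33, 1.29 and 1.03. Both blocks lay below the genome's mean coverage, at 1.99, 2.53 and 2.71 EPM on chromosome 2 and 1.72, 2.35 and 2.52 on chromosome 9. They were not ranked among windows of equal coverage or given balanced weights, so 1 is no firm mark for them.

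Trans contacts between the clusters were no more frequent than between other window pairs. The chromosome 2 and chromosome 9 clusters were joined by 13, 18 and 23 di-tags, against 13.6, 23.8 and 30.3 expected from the trans ends of both windows. The ratio was 0.959 (0.511 to 1.64), 0.756 (0.448 to 1.2) and 0.758 (0.481 to 1.14), below 1 in 3 of 3 libraries (two-sided exact p = 0.25 by sign-flip permutation, its smallest value). Pooled, 54 di-tags against 67.7 expected gave 0.798 with an interval of 0.599 to 1.04. Under this expectation, an excess above 1.04 times the expected number lay outside counting error. In each library the interval included 1. The limit depends on the expectation: from all ends instead of trans ends, the ratio was 1.11, 0.860 and 0.822. Pooled, that expectation was 60.6 di-tags, a ratio of 0.891.

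Among 57297 pairs of windows on different chromosomes, of the same lengths and within 0.8 to 1.25 times the coverage of the clusters, the median ratio was 0.988, 0.990 and 0.989. The pair of olfactory receptor clusters was above 46.0%, 13% and 12.2% of them, and above 6.76% with the libraries pooled. With windows of 0.5 to 2 times the coverage, 8.32% of 314869 pairs were lower, and with windows of any coverage 10.8% of 479969. With the expectation from all ends, 11.5% of the 57297 pairs were lower, libraries pooled. The 54 di-tags fell on 54 different region pairs out of 127400 possible. None of these pairs was seen in more than 1 library or held more than 1 di-tag, so no region pair between the clusters could be named as recurring.

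**Figure D5:**
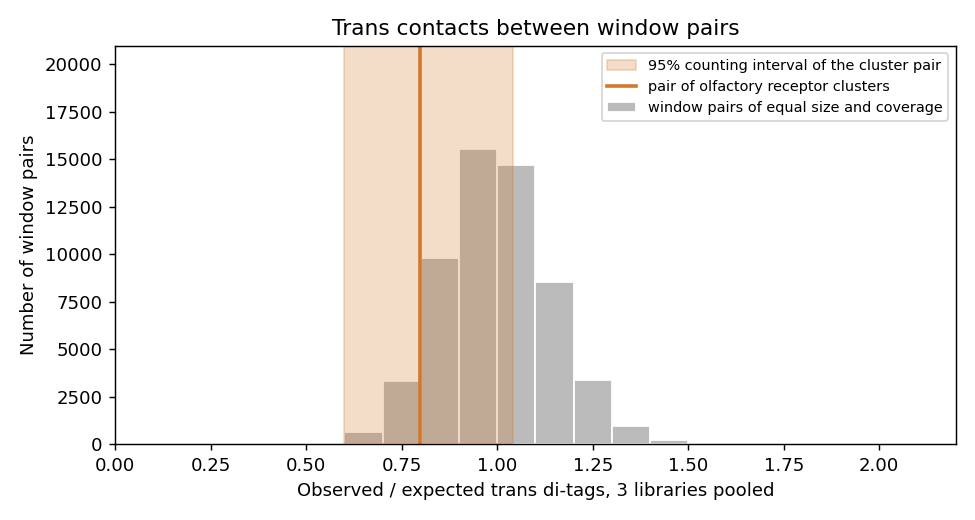
Number of window pairs (y axis) by their ratio of observed to expected trans di-tags with 3 libraries pooled (x axis), for 57297 pairs of equal size and coverage. The line marks the pair of olfactory receptor clusters at 0.798 and the band its 95% counting interval, which overlaps the bulk of the pairs.

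Single region pairs were tested with a cumulative binomial test on all pairs with at least 2 di-tags in the genome, with the product of both regions' shares of ends as the probability and Benjamini-Hochberg adjustment over all possible pairs. Within the chromosome 2 cluster 55 of 80, 122 of 142 and 126 of 170 such pairs had an adjusted p under 0.05, or 68.8%, 85.9% and 74.1%. Within the chromosome 9 cluster the test called 57 of 93, 108 of 149 and 108 of 153 pairs, or 61.3%, 72.5% and 70.6%. Over the whole genome 39%, 61.4% and 59.9% of the pairs were called. Because the test does not model distance, the pairs at 10 to 50 kb are the closer comparison. There 74.5%, 94.3% and 82% were called on chromosome 2 and 77.2%, 80.7% and 85% on chromosome 9, against 71.2%, 85.4% and 82.7% of all pairs at that distance. These shares lay on both sides of the background.

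At longer distances few pairs of the clusters held 2 di-tags or more. At 50 to 200 kb the test called 13 of 20, 16 of 22 and 13 of 26 on chromosome 2, or 65%, 72.7% and 50%, and 24%, 48.1% and 31% on chromosome 9, against 41.9%, 45.5% and 40.3% of all pairs at that distance. At 200 kb to 1 Mb it called 6 of 10, 5 of 11 and 4 of 11 on chromosome 2 and 5 of 8, 7 of 13 and 3 of 10 on chromosome 9, against 22.3%, 29.7% and 26.5% of all pairs. Above 1 Mb at most 3 pairs of a cluster were tested in a library, of which at most 2 were called, against 13.8%, 28.2% and 25.6% of all pairs. The chromosome 2 cluster was above the background at 50 to 200 kb and at 200 kb to 1 Mb in every library, and the chromosome 9 cluster at 200 kb to 1 Mb. The tested pairs of both clusters also had a lower median count expected from coverage than cis pairs of the genome, at 0.00287, 0.0013 and 0.00121. It was 0.000630, 0.000476 and 0.000657 on chromosome 2 and 0.000815, 0.000681 and 0.000669 on chromosome 9. The part of this in the share called was not tested.

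With the expected count scaled by distance, 0 pairs were called within either cluster in any library by the same binomial test. Of all pairs, 0.843%, 0.851% and 0.948% were called, but these include trans pairs, whereas pairs within a cluster are all cis. At an unadjusted p under 0.05, 44, 56 and 63 pairs passed on chromosome 2 and 53, 50 and 57 on chromosome 9, counted among pairs already chosen for holding at least 2 di-tags. That was 55%, 39.4% and 37.1% of the pairs on chromosome 2 and 57%, 33.6% and 37.3% on chromosome 9, against 45.9%, 38.3% and 39% of all cis pairs. Of the pairs called without distance in any library, 15 of 234 on chromosome 2 and 11 of 213 on chromosome 9 were called in all 3, and none of them spanned 100 kb or more. At this depth a median of 2 di-tags stood behind a tested pair.

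The region pairs at least 100 kb apart that recurred best had few di-tags. On chromosome 2, chr2:88930000-88939999 and chr2:89110000-89119999 were joined by 3, 2 and 1 di-tags, with 0.0390, 0.0538 and 0.0713 expected at their distance of 180 kb. The binomial test without distance called this pair in 2 libraries, whereas with distance in the expected count it was called in none. Next, chr2:85000000-85009999 met chr2:85100000-85109999 in 2, 2 and 1 di-tags, and chr2:85030000-85039999 met chr2:85160000-85169999 in 2, 1 and 2, with no call in any library. On chromosome 9, chr9:39990000-39999999 met chr9:40140000-40149999 in 3, 1 and 2 di-tags and chr9:40090000-40099999 in 3, 1 and 1, while chr9:37850000-37859999 met chr9:38020000-38029999 in 1, 2 and 2. In all, 11 such pairs on chromosome 2 and 10 on chromosome 9 held a di-tag in every library.

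From the clusters to regions outside, the best recurring cis pair began in the most covered region of the chromosome 9 cluster. Region chr9:40070000-40079999 met chr9:40360000-40369999, beyond the last edge, in 4, 2 and 2 di-tags, with 0.705, 0.618 and 0.557 expected, and chr9:40260000-40269999 in 2, 1 and 4. The third pair there, chr9:37470000-37479999 with chr9:37670000-37679999, had 1, 2 and 1. Across the last edge of the chromosome 2 cluster, chr2:89850000-89859999 met chr2:90090000-90099999 in 1, 3 and 1 di-tags. Both other pairs crossed its first edge with 1 di-tag in each library, chr2:84690000-84699999 with chr2:85000000-85009999 and chr2:84970000-84979999 with chr2:85090000-85099999.

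Trans region pairs from the clusters with at least 2 di-tags were few, and no called pair recurred. From the chromosome 2 cluster 33 of 56, 32 of 55 and 33 of 70 were called, or 58.9%, 58.2% and 47.1%. From the chromosome 9 cluster 15 of 40, 24 of 53 and 24 of 55 were called, or 37.5%, 45.3% and 43.6%. Over the genome 24.9%, 33.4% and 30.2% of trans pairs were called. The median expected count of the cluster pairs was lower, at 0.000609, 0.000654 and 0.000716 on chromosome 2 against 0.00179, 0.00129 and 0.00129 over the genome, and its part in the higher share was not tested. Of the 98 different pairs called from the chromosome 2 cluster and 63 from the chromosome 9 cluster, 0 were called in 2 libraries by this test, and none lay between the clusters.

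Against tiles of 5 Mb, trans contacts of both clusters were spread over the genome. Among 480 tiles with at least 10 expected di-tags pooled, the median ratio of the chromosome 2 cluster was 1.01, with 5% of tiles below 0.823 and 5% above 1.21. For the chromosome 9 cluster and 492 tiles it was 0.996, with 0.781 and 1.25. Ratios were above 1 in all 3 libraries for 74 and 64 tiles, and below 1 in all 3 for 77 and 71. The tiles with the highest smallest ratio were chr18:80000000-84999999, chr5:125000000-129999999 and chr12:45000000-49999999 for chromosome 2, with pooled ratios of 1.36, 1.32 and 1.29. For chromosome 9 they were chr12:20000000-24999999, chr17:0-4999999 and chr4:50000000-54999999, with 1.59, 1.57 and 1.36, the first from only 7, 12 and 12 di-tags. Of the 456 tiles they shared, 72 were above 1 in all 3 libraries for the chromosome 2 cluster, 55 for the chromosome 9 cluster and 7 for both. Across these 456 tiles the ratios of both clusters had a Pearson r of 0.0862 and a Spearman rho of 0.0682.

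Far cis contacts varied more between tiles. The chromosome 2 cluster had its highest smallest ratio with chr2:95000000-99999999, at 2.38, 1.45 and 1.45, from 333, 84 and 90 di-tags. It was followed by chr2:110000000-114999999, at 1.68, 1.53 and 1.42, and by chr2:60000000-64999999, at 1.28, 1.34 and 1.35. The chromosome 9 cluster had its highest values with chr9:10000000-14999999, at 1.78, 1.54 and 1.40, chr9:25000000-29999999, at 1.70, 1.35 and 1.32, and chr9:15000000-19999999, at 2.00, 1.30 and 1.61. Across the cis tiles the ratio fell as coverage of the tile rose, with a Spearman rho of -0.775 over 35 tiles for chromosome 2 and -0.833 over 22 tiles for chromosome 9. Tiles share libraries and neighbours on a chromosome, and whether coverage accounts for the named tiles was not tested.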

How the data were processed

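For each library the authors deposited lists of di-tags with duplicates retained and with duplicates removed. A line places each of both reads on a strand and position of a chromosome, so the deposited values are positions, and the measure used here was the number of lines (a count of di-tags). As the study's methods describe, HiCUP truncated reads at the ligation junction, mapped both reads independently, kept unique pairs, filtered artefacts and removed duplicates. Per the labels, Bowtie 1.1.0 and mm9 were used. Reads in repeated sequence, such as recent gene copies, are lost by unique mapping.

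Ends were counted in regions of 10 kb, since fragments could not be placed without the genome sequence. Cis expectations were the genome's contacts at each distance times the product of coverage, and trans expectations used the trans ends of both windows. Region pairs were tested with a cumulative binomial test. Regions, region pairs and partner tiles were named by a rule: the highest smallest value over the 3 libraries. Windows of equal size and coverage were all enumerated. Python 3.11.15, numpy 2.4.6 and scipy 1.17.1 were used.

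The windows and tests were chosen with earlier results of these data known. The code was tested on simulated data. The binomial calls and the trans expectation behaved as simulated within counting error, but those data were drawn from the form of model that each assumes. The pairs simulated for the binomial calls held no decline with distance, so they could not show whether that test holds for these libraries. For the chromosome 2 cluster, the only window simulated, the cis expectation was too low and the ratio to it too high when coverage was uneven. Balanced weights were therefore added after seeing the data. The labels do not say that the libraries had separate origins, so p-values measure only the spread between these samples. Alternatives changed the list, region size, flanks, expectation, thresholds and libraries.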

Additional observations from a re-analysis of the deposited data

How the results depend on the processing

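Values are means over the 3 libraries. Apart from leaving out libraries and 4 edge values that the construction fixes, 87 alternative values were computed over all results, of which 49 stayed within the spread between libraries or within 1.5 times a count, 30 moved further and 8 reversed. Without the 10% most covered regions, coverage of the chromosome 2 cluster over the genome and over the flanks reversed to 1.04 and 1.03, that of the chromosome 9 cluster over the flanks to 1.12, and the latter over the genome moved to 1.26. The ratio of observed to expected di-tags within the clusters at 200 kb to 1 Mb then reversed to 0.822 on chromosome 2 and 0.856 on chromosome 9. It moved to 0.733 and 0.749 at 10 to 50 kb, to 0.751 and 0.726 at 50 to 200 kb and to 1.23 and 1.22 above 1 Mb, and the trans ratio between the clusters to 0.610. Without coverage in the expectation, the ratio reversed at 200 kb to 1 Mb (0.546 and 0.843) and, on chromosome 2, above 1 Mb (0.933), and moved at 10 to 50 kb (0.492 and 0.710) and at 50 to 200 kb (0.429 and 0.682). With duplicates retained, coverage of the chromosome 9 cluster was 1.18 over the genome and 0.967 over the flanks, the ratio at 200 kb to 1 Mb 1.30 and 1.24, that across the first edge of the chromosome 9 cluster 0.661, the trans ratio 0.952, and 857 and 636 pairs were called. With flanks of 1 Mb, coverage of the chromosome 9 cluster over the flanks was 0.682, and the edge ratios were the same by construction. An expectation from chromosome 2 alone gave 1.18 at 200 kb to 1 Mb there. Balanced weights gave 1.1 for that value and 0.869 across the first edge of the chromosome 9 cluster. Calls numbered 47.7 and 42.3 at an adjusted p under 0.001, 48.3 and 43.7 with at least 3 di-tags, and 0 and 0 with distance in the expectation, against 101 and 91 in the main setting. With 3 libraries a mean cannot leave their spread when a library is dropped, so these values are given without a verdict: the ratio above 1 Mb was 1.53 to 1.83 on chromosome 2 and 1.39 to 1.55 on chromosome 9, and the trans ratio 0.757 to 0.859, with 12.6% to 29.5% of window pairs below it. No paired analysis was possible because the libraries form 1 group. Depth limits the trans result to 54 di-tags, and most tested pairs to 2 di-tags.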
